A study of Mus musculus with 15 samples.

Results

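The 32 genes described here encode the enzymes of glycolysis and of the pentose phosphate pathway, with the bifunctional regulators of phosphofructokinase. They were chosen by gene name, a rule that uses no measured value, and all 32 were found among the 22339 genes of the deposited table. Their levels were followed step by step in plasma cells, which secrete antibody, together with the isoenzyme used at each step. The cells were primary mouse cells sorted on B220, the B-cell isoform of CD45, and on how much 2NBDG, a fluorescent analogue of glucose, they had taken up.

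Spleen gave 4 groups named after those sort markers, namely B220+2NBDG- and B220+2NBDG+ with B220, and B220-2NBDG- and B220-2NBDG+ without it, and bone marrow gave a B220- 2NBDG+ group called BMPC. All 5 groups came from untreated and unimmunized male C57Bl6/N mice aged 8 to 12 weeks, and all cells were CD138-high, Ly6g- and CD11c-. Each group had 3 biological replicates of about 30000 double-sorted cells, measured by bulk RNA-seq on SMART-seq cDNA. The labels name no individual mice, so the p-values measure the spread between these libraries.

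Glycolysis splits glucose into pyruvate in the cytosol, making ATP and NADH, and lactate dehydrogenase regenerates NAD+ from pyruvate. The pentose phosphate pathway branches off at glucose 6-phosphate, where its oxidative arm makes NADPH and its non-oxidative arm interconverts sugars with ribose 5-phosphate. Several steps have isoenzymes encoded by separate genes or splice forms, which differ in tissue distribution and regulation, and plasma cells also draw on glucose for the sugar chains of secreted antibody.

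Levels are in TPM, the deposited unit, which counts transcripts per 1000000 in a library, summed per gene and rescaled to that total after removal of immunoglobulin genes. TPM is corrected for transcript length, so levels of different genes can be set side by side. The 15 libraries held an estimated 17271415 to 24825875 reads, of which 4399702 to 9910761 lay outside the immunoglobulin genes. Replicates correlated at r = 0.965 to 0.976 on the log2(TPM + 1) scale across genes, except for B220+2NBDG- replicate 3, which correlated at 0.939 and 0.946 with its group. Members of the plasma cell marker list summed to between 31700 and 132000 TPM in every library, and none of its 8 genes was at 0 in a group. In bulk RNA, fewer cells of a type and less RNA per cell cannot be told apart.

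Gapdh, Aldoa, Pkm and Eno1 were the most abundant of the 32 genes, with median levels over the 15 libraries of 973, 943, 614 and 349 TPM. Together they held 66.4% of the summed TPM of the members. On complete transcripts alone the order was Aldoa (688 TPM), Pkm (528 TPM), Gapdh (447 TPM), Taldo1 (339 TPM) and Eno1 (238 TPM). Of the 32, 10 members had a median of at least 100 TPM, 9 lay between 10 and 100, and 13 lay under 10. The lowest medians belonged to Eno2 (0.825 TPM), the neuronal enolase, and Ldhb (0.840 TPM), the heart-type subunit of lactate dehydrogenase. Incomplete transcript models limit comparisons of level, because only 52.1% of the members' TPM lay on complete models and reads on short fragments raise TPM.

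**Figure D1:**
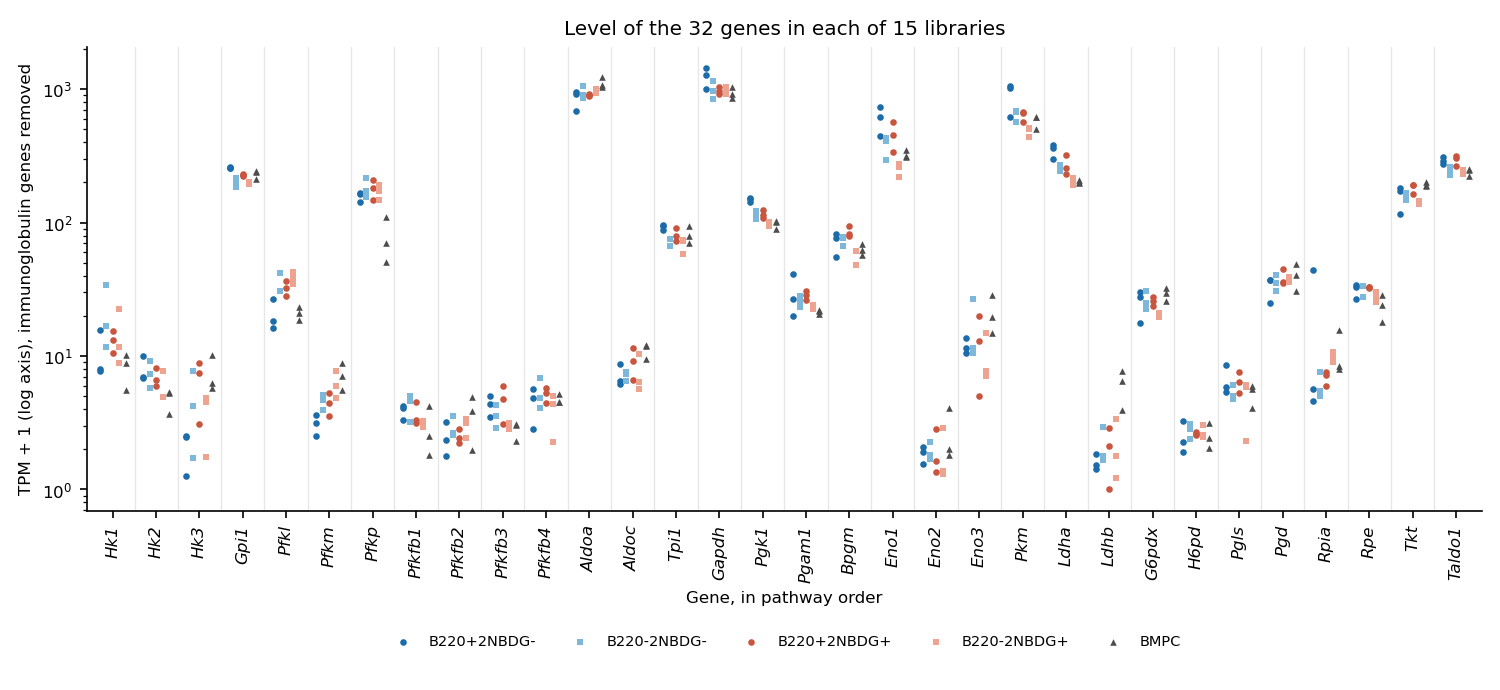
Level of each of the 32 genes in pathway order (x axis) in each of 15 libraries (points, coloured by group), as TPM + 1 on a log axis with immunoglobulin genes removed. Gapdh, Aldoa, Pkm and Eno1 sit highest and 1 gene dominates each step that has several, except the hexokinases, the mutases and the regulators of phosphofructokinase.

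Differences were tested with limma on log2(TPM + 1) over 11246 genes, all 32 members included, and a gene was called where its p, adjusted by Benjamini-Hochberg over all genes tested, was under 0.05. Higher uptake of 2NBDG went with lower Pgk1 and Ldha, and loss of B220 went with lower Gpi1, Pgk1, Eno1, Ldha and Taldo1 and higher Pfkl. In bone marrow against spleen cells of the same phenotype, Pfkp and Pfkl were lower. Of these calls, only that of Eno1 for B220 was kept in every fit that left out 1 library and under every other setting tried.

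In the comparison of 2NBDG+ with 2NBDG- spleen cells, averaged over B220, 2 of 32 members were called lower and 0 higher, and 6.46% of all genes were called (4.44% lower and 2.02% higher). At an unadjusted p under 0.05, 4 members were lower and 2 higher. The share of all genes at that threshold is not given here, so these counts cannot be set against it. The median log2 fold change of the members was -0.06 against -0.04 for all genes. Between B220- and B220+ spleen cells, averaged over 2NBDG, 5 members were called lower and 1 higher, with 8.65% of all genes called (5.85% lower and 2.8% higher). Their median was -0.15 against -0.09 for all genes. None of the 32 was called for a 2NBDG effect that differed between B220- and B220+ cells (limma interaction, 0.0267% of all genes called, all lower). For this interaction, 2 members had an unadjusted p under 0.05, Hk3 and Bpgm, again with no share of all genes to set beside them.

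The F test for any difference among the 5 groups called 9 members, where 19.1% of all genes were called. They were Gpi1, Pfkl, Pfkm, Pfkp, Pgk1, Eno1, Pkm, Ldha and Ldhb. The call on Gpi1 (limma adjusted p = 0.0397) was kept without B220+2NBDG- replicate 3, B220-2NBDG- replicate 2 or BMPC replicate 1 and lost in the other 12 of 15 fits that each left out 1 library (0.0337 to 0.111), and it was lost on complete transcripts (0.445) and protein-coding transcripts (0.117). With Taldo1, 10 members were called in at least 1 of these tests on all 15 libraries, and the other 22 in none. With 1 library left out, the F test also called Bpgm, Tkt and Rpia in 1 fit each (limma adjusted p = 0.0222, 0.0204 and 0.0446).

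**Figure D2:**
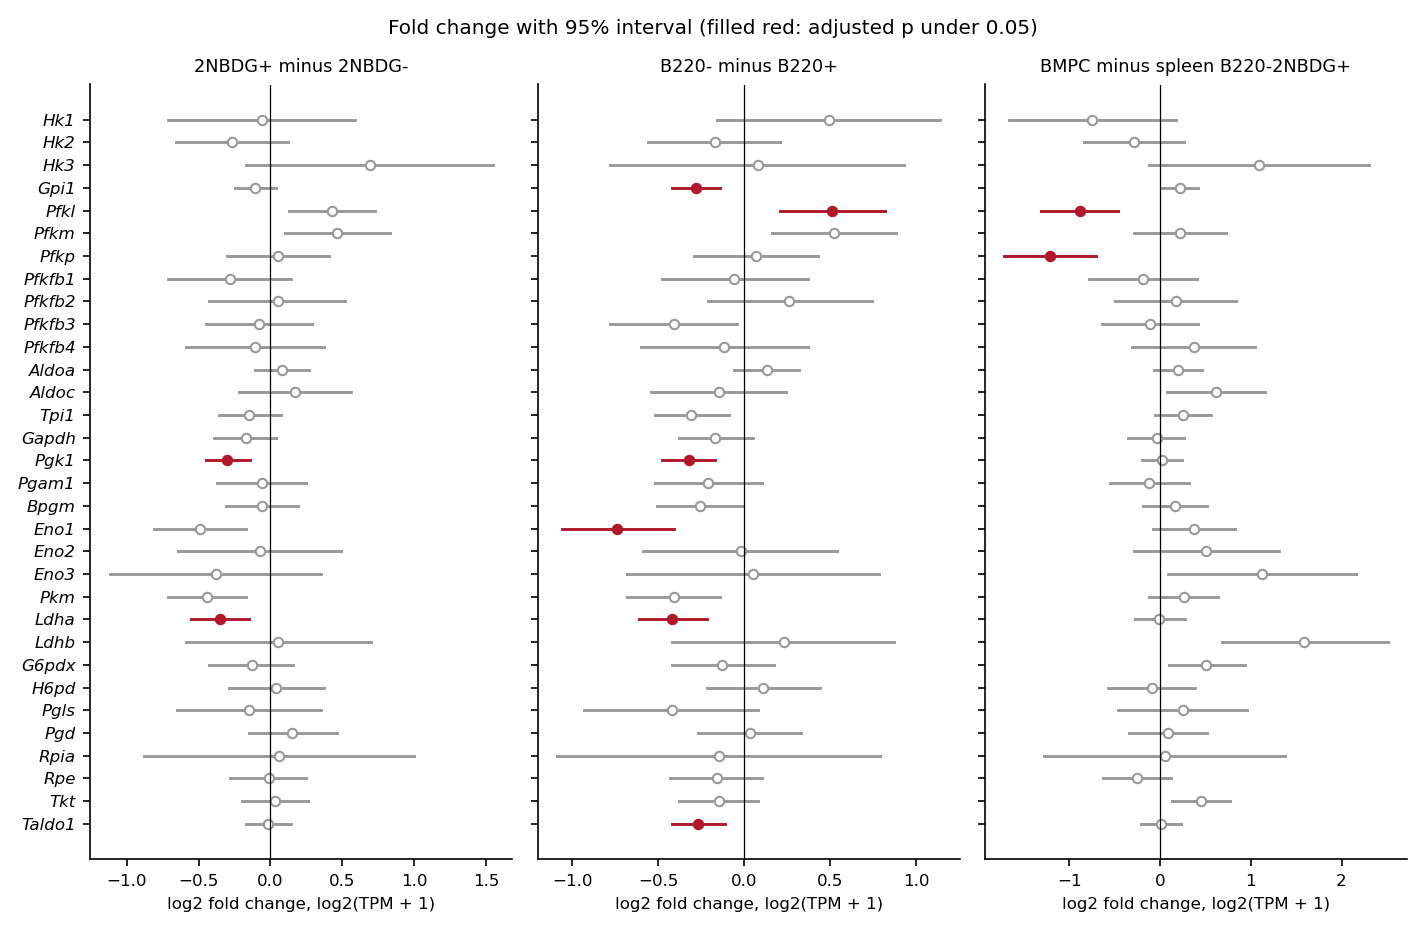
Fold change of each member (rows, in pathway order) with its 95% interval in 3 comparisons, on the log2(TPM + 1) scale; filled red points have an adjusted p under 0.05. In the spleen comparisons Pgk1 and Ldha lie below 0 in both, at -0.30 and -0.35 for 2NBDG and -0.32 and -0.42 for B220, and in bone marrow Pfkp (-1.21) and Pfkl (-0.88) lie lowest among the called genes.

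The scale bears on these counts. On the deposited TPM, in which immunoglobulin makes up most of the total, the median of all genes was -0.48 for 2NBDG and -0.40 for B220. There, 16 members were called lower and 0 higher in each of these comparisons, of 17 members that passed the filter, while all genes split into 14 higher and 3892 lower, and into 67 higher and 3394 lower. On the main scale the splits were 227 higher and 499 lower for 2NBDG, and 315 higher and 658 lower for B220. With median-of-ratios scaling, which centres the median gene near 0, the splits were 297 and 421, and 514 and 471. The members called there were Pfkl, higher, for 2NBDG, and Pfkl and Pfkm, higher, and Eno1, lower, for B220. In bone marrow against spleen the split of all genes was 116 higher and 100 lower on the main scale, 30 and 0 on deposited TPM, and 194 and 35 with median-of-ratios scaling.

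Genes of the cell cycle differed between the same groups. The 16 cell cycle genes of a fixed list summed to 1210 to 1620 TPM for B220+2NBDG-, 372 to 654 TPM for B220-2NBDG-, 468 to 770 TPM for B220+2NBDG+, 170 to 219 TPM for B220-2NBDG+ and 257 to 276 TPM for BMPC. Of these, 14 were called lower with 2NBDG and 15 lower in B220- cells. The 8 B cell markers summed to 21500 to 36500 TPM for B220+2NBDG-, 18300 to 23000 TPM for B220-2NBDG-, 21400 to 29900 TPM for B220+2NBDG+ and 19800 to 22500 TPM for B220-2NBDG+, with 4 called lower in B220- cells. The 10 T cell markers summed to 130 to 839, 100 to 238, 81.1 to 128 and 42.2 to 77.1 TPM in the same order of groups, with 4 of 9 tested called lower with 2NBDG. None of these genes was at 0 throughout a group, and their part in the results was not tested.

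The hexokinases, which trap glucose in the cell as glucose 6-phosphate, were the least abundant step of the main glycolytic chain. Their summed level averaged 17.5 TPM in B220+2NBDG-, 29.9 TPM in B220-2NBDG-, 23.5 TPM in B220+2NBDG+, 21 TPM in B220-2NBDG+ and 17.4 TPM in BMPC. Hk1, the broadly expressed form, stood, in TPM, at 14.8, 6.79 and 6.97 in B220+2NBDG-, 15.9, 10.7 and 33.1 in B220-2NBDG-, 12.1, 14.5 and 9.62 in B220+2NBDG+, 21.7, 10.7 and 7.93 in B220-2NBDG+ and 4.59, 9.22 and 7.81 in BMPC. The spleen groups overlapped one another, the BMPC libraries lay below every B220-2NBDG- and B220+2NBDG+ library, and the main limma fit called no hexokinase. With array weights, a fit that gave a convergence warning, limma called Hk3 higher with 2NBDG (1.12, adjusted p = 0.0458) and by the F test (0.0011). With a replicate block the F test called Hk2 (limma adjusted p = 0.0324) and Hk3 (0.0057). On complete transcripts alone the means of Hk1 were 7.74 ± 1.9 TPM in B220+2NBDG-, below Hk2 at 9.29 ± 2.2, and 10.7 ± 0.47 in B220-2NBDG- (SD, 3 libraries), against 19.9 ± 12 TPM for all transcripts of Hk1 in that group, of which 10.9 TPM lay on 1 incomplete model of 254 nt. Hk2, the inducible form, ranged from 2.65 to 8.95 TPM and Hk3, a form of myeloid cells, from 0.272 to 9.26 TPM.

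Hexokinase shares varied widely within groups. Hk1 held 40.1% to 74.2% of hexokinase TPM in the 2NBDG- libraries, 39.1% to 82.2% in the 2NBDG+ spleen libraries and 36.4% to 50.4% in BMPC. Hk3 held 1.29, 10.7 and 8.38 in B220+2NBDG-, 3.42, 16 and 13.9 in B220-2NBDG-, 10.8, 24.3 and 31.7 in B220+2NBDG+, 2.88, 20.8 and 19.3 in B220-2NBDG+ and 42.0, 26.3 and 43.2 in BMPC, in percent. In each spleen group, replicate 1 had the lowest Hk3 share. These replicate 1 shares rest on few estimated reads of Hk3, at 9, 19, 44 and 15 in the same order of spleen groups. The 14 markers of monocytes, macrophages and dendritic cells were also lowest in replicate 1 of each spleen group, at 150, 185, 426 and 244 TPM against 333 to 1940 TPM in the other spleen libraries. In BMPC the Hk3 share lay above all 3 libraries of B220-2NBDG+ (exact permutation p = 0.1, the smallest that 3 against 3 allows), and 10 of 12 neutrophil markers were called higher, summing to 5710 to 9500 TPM against 13.3 to 456 TPM in spleen, in cells all sorted as Ly6g-. On complete transcripts alone the Hk3 share in BMPC was 23.8% ± 21 against 37.2% ± 9.5 (SD, 3 libraries). The part of these cells in the Hk3 values was not tested.

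Gpi1, the isomerase that turns glucose 6-phosphate into fructose 6-phosphate, stood, in TPM, at 262, 256 and 255 in B220+2NBDG-, 205, 215 and 185 in B220-2NBDG-, 227, 231 and 222 in B220+2NBDG+, 198, 193 and 201 in B220-2NBDG+ and 211, 243 and 237 in BMPC. Both B220- spleen groups lay below both B220+ groups without overlap. The log2 fold change for B220 was -0.28 ± 0.07 (SE; limma adjusted p = 0.0189), and the means fell by 21.8% among 2NBDG- cells and by 12.9% among 2NBDG+ cells. The call was lost without B220-2NBDG- replicate 3 (adjusted p = 0.0533), with median-of-ratios scaling (0.154), without an eBayes trend (0.0556), on complete transcripts alone (0.250) and for TPM times effective length (0.0733). Only 17.2% of its TPM lay on its complete transcript.

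Phosphofructokinase, which commits sugar to glycolysis, was encoded mainly by Pfkp, the platelet type. Pfkp stood, in TPM, at 162, 165 and 141 in B220+2NBDG-, 154, 171 and 214 in B220-2NBDG-, 180, 146 and 207 in B220+2NBDG+, 189, 148 and 173 in B220-2NBDG+ and 49.6, 69.5 and 110 in BMPC. The 4 spleen groups overlapped, and every BMPC library lay below every spleen library. Its log2 fold change in BMPC against B220-2NBDG+ was -1.21 ± 0.24 (SE; limma adjusted p = 0.0188), and the mean was 2.23 times lower. In this comparison 2 of 32 members were called lower and 0 higher, where 1.92% of all genes were called (0.889% lower and 1.03% higher). At an unadjusted p under 0.05, 6 members were higher and 2 lower, counts that have no share of all genes beside them and show nothing particular to the members. The neutrophil markers above were higher in the same BMPC libraries, with their part not tested. The call on Pfkp was lost without B220-2NBDG+ replicate 1 (adjusted p = 0.0896) or 3 (0.0570) and without BMPC replicate 1 (0.0704) or 2 (0.0850), and on the deposited TPM (0.0766).

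Pfkl, the liver-type subunit, stood, in TPM, at 25.8, 15.2 and 17.3 in B220+2NBDG-, 30.0, 41.1 and 29.8 in B220-2NBDG-, 31.5, 35.7 and 27.4 in B220+2NBDG+, 37.2, 41.5 and 33.9 in B220-2NBDG+ and 17.5, 19.9 and 22.3 in BMPC. B220+2NBDG- and BMPC were the low groups, and no library of either reached any value of the other 3 groups. For B220 the log2 fold change was 0.51 ± 0.14 (SE; limma adjusted p = 0.0370), and the 2NBDG- groups did not overlap while the 2NBDG+ groups did. For 2NBDG it was 0.43 ± 0.14 (adjusted p = 0.0919, limma), and -0.16 on the deposited TPM. In bone marrow Pfkl was lower by 46.9%, with a log2 fold change of -0.88 ± 0.20 (SE; limma adjusted p = 0.0392). Both Pfkl calls depended on the libraries included, and the one for B220 was lost in 12 of 15 fits that each left out 1 library (adjusted p 0.0116 to 0.0882) and kept only without B220+2NBDG- replicate 1 or BMPC replicate 1 or 3. The one for bone marrow was lost in 8 of 15 (0.0226 to 0.146) and kept without any replicate of B220+2NBDG-, B220-2NBDG- replicate 2, B220+2NBDG+ replicate 2 or 3, or BMPC replicate 3. On the deposited TPM the Pfkl change was 0.02 for B220 (limma adjusted p = 0.872) and -0.33 for bone marrow (0.547), and the calls were lost under 5 and 6 of 13 other settings. The F test called Pfkl in all 15 (0.00333 to 0.0225; 0.00839 with all libraries).

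Pfkm, the muscle type, was the least abundant subunit, at, in TPM, 2.59, 2.15 and 1.53 in B220+2NBDG-, 2.94, 4.09 and 3.68 in B220-2NBDG-, 4.26, 2.55 and 3.45 in B220+2NBDG+, 6.67, 3.87 and 4.94 in B220-2NBDG+ and 4.52, 6.14 and 7.89 in BMPC. B220+2NBDG- libraries lay below all B220-2NBDG-, B220-2NBDG+ and BMPC libraries and overlapped those of B220+2NBDG+. The F test called it (limma adjusted p = 0.0174), while its log2 fold changes of 0.46 for 2NBDG (adjusted p = 0.133) and 0.52 for B220 (0.0736) did not pass in limma. As a share of phosphofructokinase TPM, Pfkm made up 1.36, 1.18 and 0.959 in B220+2NBDG-, 1.57, 1.90 and 1.49 in B220-2NBDG-, 1.98, 1.38 and 1.45 in B220+2NBDG+, 2.86, 2.00 and 2.33 in B220-2NBDG+ and 6.32, 6.42 and 5.63 in BMPC, in percent. Its share was higher in B220- than in B220+ spleen cells by 0.64 percentage points, with no overlap in either 2NBDG class (two-sided exact permutation p = 0.005 within 2NBDG strata, the smallest the design allows, and 0.045 adjusted over 18 shares).

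Pfkm's share rose in B220- cells as a small part of a step that stayed mostly Pfkp. Pfkp held a mean of 87.9% of the step in B220+2NBDG- cells, 82.6% in B220-2NBDG- cells, 83.2% in B220+2NBDG+ cells, 79.8% in B220-2NBDG+ cells and 73.5% in BMPC. Pfkl held 10.9%, 15.7%, 15.2%, 17.8% and 20.4% in that order. For 2NBDG the share of Pfkm differed by 0.59 points, with no overlap in either B220 class (exact permutation p = 0.005, adjusted 0.09). That p is the smallest the design allows, and a share alone at it adjusts to 0.09 over 18 shares. For B220, Pfkm and the M1 form of Pkm were both at it, which gave 0.045 for each. Of the 18 isoenzyme shares tested for 2NBDG, 0 were called and 2 had an unadjusted p under 0.05, Pfkm and the M1 form of Pkm. For Pfkm this count does not set 2NBDG apart from B220. In BMPC the Pfkm share was 3.73 points above B220-2NBDG+ with no overlap (exact permutation p = 0.1, the smallest that 3 against 3 allows). The Pfkm call for B220 was lost on protein-coding transcripts alone (adjusted p = 0.09) and in 9 of 12 exact tests that each left out 1 spleen library (0.045 to 0.135, kept without replicate 1 or 2 of B220+2NBDG- or replicate 1 of B220-2NBDG-). With a library left out there are fewer arrangements, and the adjusted value moves with the other shares. These losses therefore do not measure how much the call rests on 1 library.

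**Figure D3:**
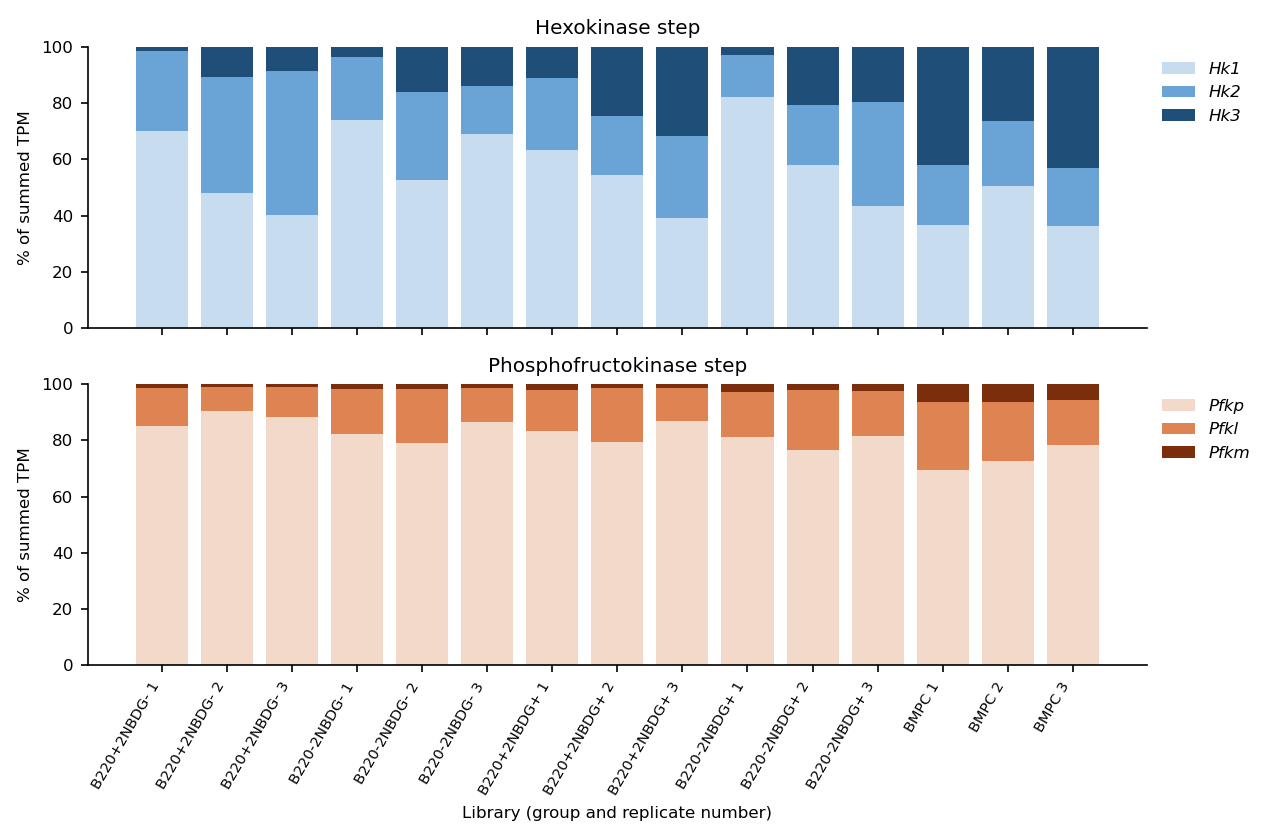
Share of each hexokinase gene (upper panel) and each phosphofructokinase gene (lower panel) in the summed TPM of its step, in percent, for each of 15 libraries. Hk1, Hk2 and Hk3 trade places within groups, while Pfkp holds 69.3% to 90.5% in every library and Pfkm is largest in BMPC, at 5.63% to 6.42%.

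Pfkfb1 to Pfkfb4 encode the bifunctional enzymes that make and remove an allosteric activator of phosphofructokinase. All 4 were scarce, between 0.795 and 5.84 TPM in every library, and the main limma fit called none in any comparison. With array weights limma called Pfkfb3 lower in B220- cells (-0.41, adjusted p = 0.0461). In that fit the F test called Pfkfb2 (limma adjusted p = 0.00279) and Pfkfb3 (0.017). Pfkfb4 was highest by median and stood, in TPM, at 3.88, 4.63 and 1.84 in B220+2NBDG-, 3.08, 3.81 and 5.84 in B220-2NBDG-, 3.43, 4.33 and 4.75 in B220+2NBDG+, 1.25, 3.35 and 3.98 in B220-2NBDG+ and 3.52, 3.54 and 4.16 in BMPC, with every group overlapping its neighbours. Pfkfb3, the form with the strongest bias towards kinase activity, held 29.9% of the 4 in both B220+ spleen groups, 21.4% in B220-2NBDG- and 22.8% in B220-2NBDG+. That difference of -7.82 points for B220 did not pass after adjustment (exact permutation p = 0.02, adjusted 0.12). It passed in 1 of 12 exact tests that each left out 1 spleen library (adjusted p 0.045 to 0.27).

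Aldolase cleaves the phosphorylated hexose, and Aldoa, the muscle and ubiquitous form, held all but 0.474% to 1.14% of the step. Aldoa stood, in TPM, at 917, 947 and 683 in B220+2NBDG-, 909, 1060 and 866 in B220-2NBDG-, 906, 922 and 896 in B220+2NBDG+, 997, 970 and 943 in B220-2NBDG+ and 1240, 1070 and 1030 in BMPC. All BMPC libraries lay above all B220-2NBDG+ libraries, by 14.9% in the mean, a difference that limma did not call. Aldoc, the brain-type aldolase, ranged from 4.62 to 11.1 TPM. Tpi1, which interconverts the triose phosphates, stood, in TPM, at 94.0, 87.4 and 94.8 in B220+2NBDG-, 65.4, 74.0 and 74.4 in B220-2NBDG-, 72.3, 89.9 and 77.8 in B220+2NBDG+, 57.0, 71.8 and 73.0 in B220-2NBDG+ and 68.8, 93.0 and 78.9 in BMPC. Its log2 fold change for B220 was -0.31 ± 0.10 (SE; limma adjusted p = 0.0759). Gapdh, which couples oxidation of the triose phosphate to NADH, stood, in TPM, at 1270, 999 and 1440 in B220+2NBDG-, 973, 841 and 1150 in B220-2NBDG-, 913, 972 and 1040 in B220+2NBDG+, 926, 937 and 1030 in B220-2NBDG+ and 854, 917 and 1040 in BMPC. The Gapdh groups overlapped and the main limma fit did not call it. The F test called Gapdh on deposited TPM (limma adjusted p = 2.41e-05) and with array weights (0.00126).

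Pgk1, the first ATP-forming enzyme of the pathway, stood, in TPM, at 142, 151 and 150 in B220+2NBDG-, 106, 112 and 121 in B220-2NBDG-, 107, 114 and 124 in B220+2NBDG+, 99.4, 94.0 and 93.3 in B220-2NBDG+ and 89.0, 99.8 and 102 in BMPC. B220+2NBDG- libraries were the highest and B220-2NBDG+ libraries the lowest in spleen. The groups did not overlap in any of the 4 spleen comparisons within strata, and BMPC overlapped B220-2NBDG+. The log2 fold change was -0.30 ± 0.07 for 2NBDG (SE; limma adjusted p = 0.0283) and -0.32 ± 0.07 for B220 (limma adjusted p = 0.0146). From B220+2NBDG- to B220-2NBDG+ the mean fell from 147 ± 4.9 to 95.6 ± 3.3 TPM (SD, n = 3), or by 35.2%. The 2NBDG call was lost in 9 of 15 fits that each left out 1 library (0.0245 to 0.0764; kept only without B220+2NBDG- replicate 3, B220-2NBDG- replicate 1, B220+2NBDG+ replicate 3 or a BMPC library), and the B220 call without B220-2NBDG- replicate 1 (0.0515). With median-of-ratios scaling neither passed (0.0948 and 0.105). The 2NBDG call was also lost without an eBayes trend (limma adjusted p = 0.0593), and the B220 call on protein-coding (0.122) and complete transcripts (0.0907).

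The phosphoglycerate mutase step moves the phosphate group before enolase. Among the members it held Pgam1, the brain or ubiquitous form, and Bpgm, whose main product is the haemoglobin regulator of red cells. Bpgm stood, in TPM, at 75.5, 81.7 and 53.9 in B220+2NBDG-, 66.3, 75.4 and 77.1 in B220-2NBDG-, 78.0, 93.3 and 81.6 in B220+2NBDG+, 47.0, 59.9 and 59.9 in B220-2NBDG+ and 56.2, 61.9 and 68.3 in BMPC and Pgam1 ranged from 19.1 to 40.2 TPM. Neither was called in the main limma fit on all libraries. Bpgm was called lower in B220- cells on deposited TPM (limma adjusted p = 0.000377) and with array weights (0.0111). The F test also called Bpgm under these settings (limma adjusted p = 8.98e-05 and 0.0047). Bpgm held 57.3% to 81.0% of their sum. Erythroid markers, 9 genes in the table, were highest in replicate 3 of each spleen group, at 2050 to 6660 TPM against 56.2 to 404 TPM in the other spleen libraries. Within its group, Bpgm in replicate 3 was the lowest in B220+2NBDG-, the highest in B220-2NBDG-, between the others in B220+2NBDG+ and level with replicate 2 in B220-2NBDG+, and the part of red cells in it was not tested. On complete transcripts alone its group means of the share lay between 51.1% and 53.4%, since 38.3% of its TPM came from its complete transcript.

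A gene outside the 32, Pgam2, the muscle form of the same mutase, was more abundant than Pgam1 in 15 of 15 libraries, by 1.44 to 24.9 times. Pgam2 stood, in TPM, at 47.6, 38.3 and 57.9 in B220+2NBDG-, 81.0, 67.6 and 82.7 in B220-2NBDG-, 69.9, 77.8 and 115 in B220+2NBDG+, 126, 112 and 204 in B220-2NBDG+ and 119, 519 and 160 in BMPC. B220+2NBDG- libraries were the lowest, below every other library, and BMPC replicate 2 stood far above the rest. The gene has 1 transcript of 840 nt at chr11:5801640-5803733 (GRCm38), with 286 to 2566 estimated reads a library. The F test over the 5 groups called it (limma adjusted p = 0.0164; 0.00593 to 0.0478 with 1 library left out), and the separate comparisons did not (0.86 ± 0.30, adjusted p = 0.112 for 2NBDG; 0.71 ± 0.30, 0.169 for B220). On the deposited TPM the spleen means were 3.99, 4.11, 4.01 and 5.27 and the F test did not call it (adjusted p = 0.066, limma). Of the 14 isoenzyme genes outside the members, 5 could be tested, and the F test called 1 of them, Pgam2, where 19.1% of all genes were called. That count is near the share of all genes and does not set this list apart.

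Enolase, which forms phosphoenolpyruvate, was encoded almost wholly by Eno1, the ubiquitous form. Eno1 stood, in TPM, at 614, 731 and 449 in B220+2NBDG-, 294, 433 and 409 in B220-2NBDG-, 337, 565 and 456 in B220+2NBDG+, 219, 261 and 274 in B220-2NBDG+ and 311, 314 and 349 in BMPC. Both B220- groups lay below the B220+ group of the same 2NBDG class without overlap. For B220 its log2 fold change was -0.74 ± 0.15 (SE; limma adjusted p = 0.00789), the largest called among the members in spleen, and it stayed called in all 15 fits with 1 library left out (0.0029 to 0.0245) and under all 13 other settings. Means fell by 36.7% among 2NBDG- cells and by 44.5% among 2NBDG+ cells. For 2NBDG the change was -0.49 ± 0.15 (limma adjusted p = 0.0714), with no overlap among B220- cells and overlap among B220+ cells. Eno1b, a near-identical copy, was listed at up to 3.96 TPM. Eno2 ranged from 0.297 to 3.06 TPM and Eno3, the muscle form, from 4.06 to 27.5 TPM, and the main limma fit called neither. In BMPC, limma called Eno2 higher for TPM times effective length (adjusted p = 0.0339) and Eno3 higher with array weights (0.0282). The F test called each under the same setting (limma adjusted p = 0.032 and 0.0235).

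Pyruvate kinase makes the last ATP of glycolysis. Pkm encodes its M1 and M2 forms by mutually exclusive use of exon 9 or exon 10, and M1 is constitutively active while M2 is regulated and typical of proliferating cells. Exon 9 lies at chr9:59675029-59675195 and exon 10 at chr9:59675568-59675734 on the plus strand of GRCm38, each 167 nt long. Their sequences are shown because the share of M1 rests on reads that tell them apart, with capitals at the 64 positions where they differ. The other 103 positions, 61.7%, are identical.
Pkm exon 9 (M1): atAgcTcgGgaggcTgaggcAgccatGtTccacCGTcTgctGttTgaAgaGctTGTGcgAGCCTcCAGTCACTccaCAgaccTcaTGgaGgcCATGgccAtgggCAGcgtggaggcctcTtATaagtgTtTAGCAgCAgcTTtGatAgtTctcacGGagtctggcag
Pkm exon 10 (M2): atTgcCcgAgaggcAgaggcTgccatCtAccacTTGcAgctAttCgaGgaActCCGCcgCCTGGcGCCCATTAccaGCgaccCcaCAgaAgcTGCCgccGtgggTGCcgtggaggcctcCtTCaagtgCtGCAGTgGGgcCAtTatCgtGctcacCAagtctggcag

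Pkm as a whole stood, in TPM, at 1020, 1050 and 614 in B220+2NBDG-, 569, 676 and 682 in B220-2NBDG-, 670, 659 and 567 in B220+2NBDG+, 501, 436 and 507 in B220-2NBDG+ and 503, 613 and 620 in BMPC. B220+2NBDG- replicates 1 and 2 were the highest, replicate 3 of that group lay among the other spleen libraries, and B220-2NBDG+ was the lowest group in spleen. The F test called Pkm (limma adjusted p = 0.0338). Its log2 fold changes of -0.44 ± 0.13 for 2NBDG (limma adjusted p = 0.0558) and -0.41 ± 0.13 for B220 (limma adjusted p = 0.0577) did not pass. Both passed without B220+2NBDG- replicate 3 (0.00181 and 0.00187). The F test call was lost in 6 of 15 fits with 1 library left out (0.000892 to 0.114), those without B220+2NBDG- replicate 1 or 2, any B220-2NBDG+ library or BMPC replicate 2.

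Group means differed more for M2 than for M1. The complete M2 transcript stood, in TPM, at 538, 532 and 330 in B220+2NBDG-, 280, 311 and 321 in B220-2NBDG-, 348, 359 and 300 in B220+2NBDG+, 231, 199 and 238 in B220-2NBDG+ and 241, 283 and 288 in BMPC. The complete M1 transcript stood, in TPM, at 139, 148 and 56.5 in B220+2NBDG-, 87.8, 119 and 106 in B220-2NBDG-, 95.8, 97.0 and 111 in B220+2NBDG+, 101, 84.7 and 90.9 in B220-2NBDG+ and 82.3, 104 and 119 in BMPC. M1 group means lay between 92.4 and 114 TPM, while M2 means lay between 223 and 467 TPM highest in B220+2NBDG- and lowest in B220-2NBDG+, as for Pkm as a whole. Shorter models without either exon held group means of 165.9 to 311 TPM.

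As a share of M1 plus M2, M1 made up 20.5, 21.7 and 14.6 in B220+2NBDG-, 23.9, 27.7 and 24.8 in B220-2NBDG-, 21.6, 21.3 and 27.1 in B220+2NBDG+, 30.5, 29.8 and 27.7 in B220-2NBDG+ and 25.5, 26.8 and 29.2 in BMPC, in percent. In both 2NBDG strata every B220- library lay above every B220+ library. The mean share was 18.9% ± 3.8 for B220+2NBDG-, 25.5% ± 2.0 for B220-2NBDG-, 23.3% ± 3.3 for B220+2NBDG+, 29.3% ± 1.5 for B220-2NBDG+ and 27.2% ± 1.9 for BMPC (SD, 3 libraries each). B220- exceeded B220+ by 6.26 points (two-sided exact permutation p = 0.005, the smallest the design allows, 0.045 adjusted over 18 shares). The 2NBDG difference of 4.12 points did not pass (exact permutation p = 0.03, adjusted 0.27). The B220 call was lost on protein-coding transcripts alone (adjusted p = 0.09) and in 8 of 12 exact tests that each left out 1 spleen library (0.045 to 0.135, kept without replicate 1 or 2 of B220+2NBDG-, replicate 1 of B220-2NBDG- or replicate 2 of B220+2NBDG+). On protein-coding transcripts alone the M1 shares themselves were the same, and the adjusted value moved with the other shares. With a library left out there are also fewer arrangements, so those losses do not measure how much the call rests on 1 library.

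**Figure D4:**
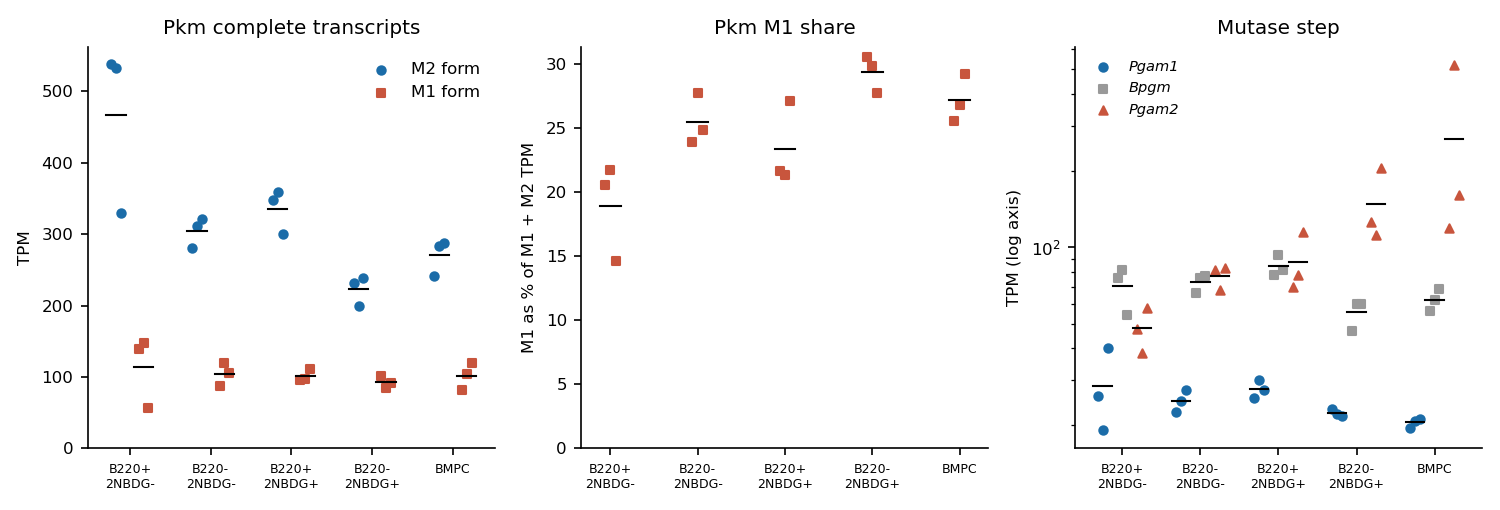
TPM of the complete M1 and M2 transcripts of Pkm (left), the M1 share in percent (centre) and TPM of Pgam1, Bpgm and Pgam2 on a log axis (right), with points for libraries and lines for group means. Libraries lie between 56.5 and 148 TPM for M1 and between 199 and 538 TPM for M2, and Pgam2 exceeds Pgam1 in every library.

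Lactate dehydrogenase turns pyruvate to lactate, and Ldha, the muscle-type subunit, held nearly all of it. Ldha stood, in TPM, at 362, 378 and 298 in B220+2NBDG-, 242, 253 and 269 in B220-2NBDG-, 255, 321 and 231 in B220+2NBDG+, 189, 216 and 202 in B220-2NBDG+ and 202, 206 and 196 in BMPC. B220- groups lay below the B220+ group of the same 2NBDG class without overlap, and BMPC overlapped B220-2NBDG+. The log2 fold change was -0.35 ± 0.09 for 2NBDG (SE; limma adjusted p = 0.0374) and -0.42 ± 0.09 for B220 (limma adjusted p = 0.0125). The mean fell from 346 ± 43 TPM in B220+2NBDG- to 202 ± 14 TPM in B220-2NBDG+ (SD, n = 3), or by 41.5%. The B220 call was kept in all 15 fits with 1 library left out (0.00444 to 0.0407) and lost with median-of-ratios scaling (0.0768) and on protein-coding transcripts (0.0819). The 2NBDG call was lost in 10 of 15 (0.0116 to 0.101; kept only without B220+2NBDG- replicate 3, B220+2NBDG+ replicate 2, B220-2NBDG+ replicate 2 or BMPC replicate 1 or 3). It was also lost with median-of-ratios scaling (limma adjusted p = 0.115), without an eBayes trend (0.071), on protein-coding transcripts (0.0774) and on complete transcripts (0.137).

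Ldhb stood, in TPM, at 0.426, 0.840 and 0.535 in B220+2NBDG-, 1.96, 0.789 and 0.666 in B220-2NBDG-, 1.90, 0 and 1.12 in B220+2NBDG+, 0.769, 0.217 and 2.35 in B220-2NBDG+ and 2.96, 6.67 and 5.55 in BMPC, on 0 to 26 estimated reads a library. The 3 BMPC libraries lay above all spleen libraries. The F test called it (limma adjusted p = 0.0304; lost without B220+2NBDG- replicate 1 at 0.0568, BMPC replicate 2 at 0.145 or BMPC replicate 3 at 0.104), and the bone marrow comparison did not (1.59 ± 0.43, limma adjusted p = 0.0762). Ldhb made up 1.44% to 3.14% of the step in BMPC and at most 1.15% in B220-2NBDG+.

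**Figure D5:**
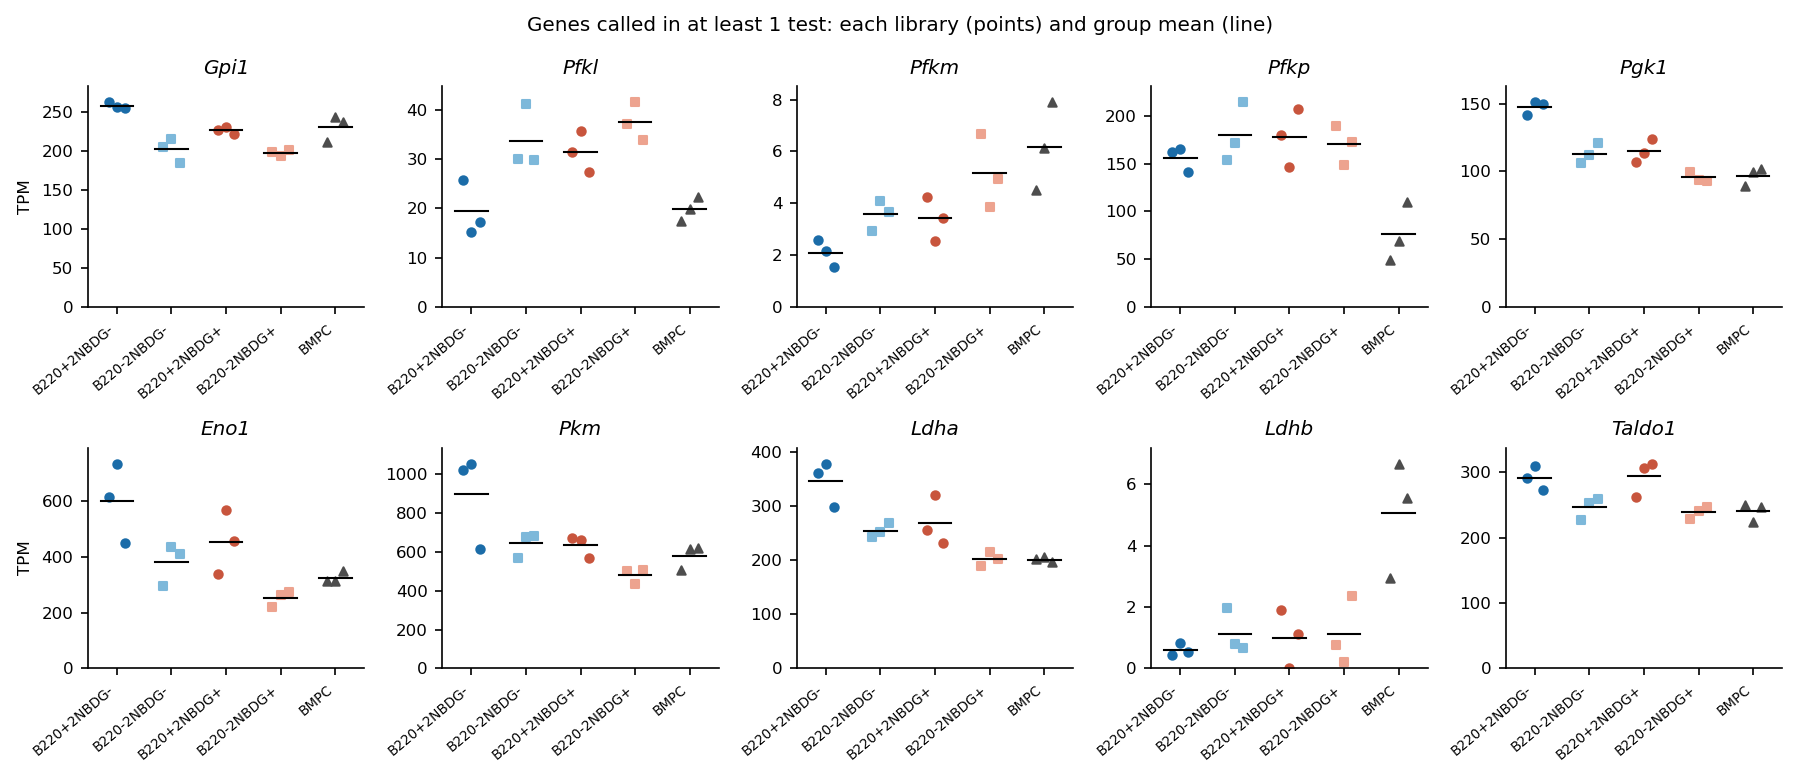
TPM of the 10 members called in at least 1 test, with a point for each library and a line for each group mean, 1 panel a gene with its own axis from 0. Pgk1 and Ldha step down from B220+2NBDG- (means 147 and 346) to B220-2NBDG+ (95.6 and 202), Pfkl is lowest in B220+2NBDG- and BMPC, and Pfkp is lowest in BMPC.

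Pgk1 and Ldha were the members called in both spleen comparisons, and Pfkl the called member that went the other way, so their promoter windows are shown. Each runs from 250 bases before to 50 after a RefSeq start site (GRCm38.p6), the window nearest to the start of the most abundant complete transcript. Capitals mark ACGTG and GCGTG on either strand, the core letters of a hypoxia response element, and a CACGTG is counted once on each strand. Pgk1 lies at chrX:106186850-106187149 on the plus strand with 2 ACGTG, Ldha at chr7:46845554-46845853 on the plus strand with 5 ACGTG and 2 GCGTG, and Pfkl at chr10:78009758-78010057 on the minus strand with 1 GCGTG.
Pgk1: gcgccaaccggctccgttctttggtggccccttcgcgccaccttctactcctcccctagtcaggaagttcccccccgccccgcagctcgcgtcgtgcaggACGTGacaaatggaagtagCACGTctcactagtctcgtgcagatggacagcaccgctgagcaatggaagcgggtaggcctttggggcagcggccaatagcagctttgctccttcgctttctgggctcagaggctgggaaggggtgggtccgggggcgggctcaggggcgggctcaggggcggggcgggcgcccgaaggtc
Ldha: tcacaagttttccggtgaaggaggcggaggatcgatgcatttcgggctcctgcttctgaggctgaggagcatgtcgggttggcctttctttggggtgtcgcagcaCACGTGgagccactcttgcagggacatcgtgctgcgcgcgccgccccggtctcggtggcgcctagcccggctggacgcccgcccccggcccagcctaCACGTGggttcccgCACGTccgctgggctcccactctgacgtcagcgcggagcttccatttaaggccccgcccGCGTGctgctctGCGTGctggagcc
Pfkl: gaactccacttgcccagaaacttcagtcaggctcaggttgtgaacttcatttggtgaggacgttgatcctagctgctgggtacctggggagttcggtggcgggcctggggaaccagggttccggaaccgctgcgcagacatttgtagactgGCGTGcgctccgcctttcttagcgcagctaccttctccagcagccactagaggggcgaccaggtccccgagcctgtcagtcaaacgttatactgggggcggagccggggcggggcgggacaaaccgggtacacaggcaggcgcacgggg

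All 32 members had a RefSeq window, but that of Hk1 lay 17941 nt from the start of its most abundant complete transcript and that of Gapdh 694 nt, and both are counted here. ACGTG was in 12 of them (37.5%) and in 19.6% of the 32851 windows of the table, and GCGTG in 19 (59.4%) and in 32.4%. Each member has 1 window, picked by its most abundant complete transcript, while the 32851 windows were not picked in that way. The shares are not matched, so no enrichment is drawn from them. These are matches of letters in a window and no measure of binding. Of the other members called for B220, Eno1 and Taldo1 each had 0 ACGTG and 2 GCGTG, and Gpi1 had 0 of both. Of those called by the F test or in bone marrow, Pkm had 0 of both, Pfkm 3 ACGTG, Pfkp 4 GCGTG and Ldhb 1 GCGTG. The printed windows therefore do not stand for the called members as a set. Of 20 genes of the hypoxia-inducible factors and their other targets, 14 were tested. P4ha1, a collagen prolyl hydroxylase, was called higher with 2NBDG (0.74 ± 0.13, limma adjusted p = 0.00544). P4ha2, another such enzyme, was called higher in B220- cells (1.25 ± 0.33, limma adjusted p = 0.0307). None of the 14 was called lower in either comparison by limma. Of all genes, 2.02% were called higher and 4.44% lower for 2NBDG, and 2.8% and 5.85% for B220. With only 14 genes, no result about the list is drawn from 1 call higher and 0 lower in each comparison. At an unadjusted p under 0.05 there were 4 higher and 0 lower for 2NBDG, and 4 higher and 2 lower for B220, without a share of all genes to set beside them.

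In the oxidative arm of the pentose phosphate pathway, G6pdx, its entry dehydrogenase, stood, in TPM, at 26.5, 29.4 and 16.7 in B220+2NBDG-, 21.5, 29.5 and 23.9 in B220-2NBDG-, 22.6, 24.9 and 26.7 in B220+2NBDG+, 18.7, 20.2 and 19.6 in B220-2NBDG+ and 24.8, 28.9 and 31.2 in BMPC. BMPC libraries lay above all B220-2NBDG+ libraries (0.51 on the log2 scale, limma adjusted p = 0.197). Pgd, the next dehydrogenase, ranged from 24 to 48.2 TPM, Pgls, the lactonase between them, from 1.32 to 7.53 TPM, and H6pd, the form of the endoplasmic reticulum, from 0.895 to 2.28 TPM. None of the 4 was called in the main limma fit. Under other settings limma called G6pdx higher in BMPC with median-of-ratios scaling (adjusted p = 0.046), array weights (0.0165) and TPM times effective length (0.0298). The F test called it on deposited TPM (limma adjusted p = 0.00115), with array weights (0.0207) and for TPM times effective length (0.0448).

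The non-oxidative arm was more abundant. Taldo1, transaldolase, stood, in TPM, at 291, 309 and 273 in B220+2NBDG-, 227, 253 and 260 in B220-2NBDG-, 263, 306 and 313 in B220+2NBDG+, 229, 241 and 247 in B220-2NBDG+ and 250, 224 and 247 in BMPC. In both 2NBDG classes the B220- libraries lay below the B220+ libraries, by 15.3% and 18.7% in the means. Its log2 fold change for B220 was -0.27 ± 0.07 (SE; limma adjusted p = 0.0362), and the call was lost in 10 of 15 fits with 1 library left out (0.0209 to 0.109; kept only without B220+2NBDG- replicate 3, B220+2NBDG+ replicate 1 or a BMPC library). It was also lost with median-of-ratios scaling (0.338), without an eBayes trend (0.0841) and for TPM times effective length (0.0689). Tkt, transketolase, ranged from 115 to 200 TPM, and its BMPC libraries (187 to 200 TPM) lay above those of B220-2NBDG+ (137 to 144 TPM; 0.45 ± 0.15, limma adjusted p = 0.144). Rpe, the epimerase, ranged from 16.9 to 33.3 TPM. Rpia, the ribose 5-phosphate isomerase, was at 43.1 TPM in B220+2NBDG- replicate 3 and at 3.60 to 14.8 TPM in the other 14 libraries. The main limma fit on all libraries did not call it, and the F test called it with array weights (limma adjusted p = 0.0103).

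Among 32 genes of the branches, gluconeogenesis and the fate of pyruvate, 28 were tested. Pck2, the mitochondrial phosphoenolpyruvate carboxykinase, was called higher with 2NBDG (0.52 ± 0.14, limma adjusted p = 0.0374) and in B220- cells (0.58 ± 0.14, limma adjusted p = 0.0180). In B220- cells Pdhb, a subunit of pyruvate dehydrogenase, was called lower (-0.38 ± 0.09, limma adjusted p = 0.0239). Prps1, which makes phosphoribosyl pyrophosphate from ribose 5-phosphate, was lower as well (-0.34 ± 0.10, limma adjusted p = 0.0429). In bone marrow Fbp1, the gluconeogenic bisphosphatase opposed to phosphofructokinase, was called higher (1.47 ± 0.16, limma adjusted p = 0.000272). Pgm2l1, which makes glucose 1,6-bisphosphate, was also called higher there (1.31 ± 0.25, limma adjusted p = 0.0186), beside the neutrophil markers given above. Both genes were scarce. Fbp1 lay at 1.36 to 2.38 TPM in BMPC and at no more than 0.224 TPM in any spleen library. Pgm2l1 lay at 1.62 to 5.3 TPM in BMPC and at no more than 1.23 TPM in spleen. Each passed the filter on level only through its BMPC libraries, so it was tested only because of its level there.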

How the data were processed

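RNA from 15 sorted plasma cell libraries was quantified by the authors as TPM per transcript with Salmon 0.9.1 on GRCm38.p6, per the submitters' processing notes. The deposited table lists TPM for 63553 transcripts with their length and effective length in nt, while trimming of reads and the options of Salmon are not given there. Here the TPM of each gene's transcripts were summed (22339 genes), 262 immunoglobulin genes were removed, and each library was rescaled to 1000000, which multiplied TPM by 11.2 to 29.3. Reads per library were estimated from the steps of TPM times effective length, where 72.3% to 74.9% of values came out whole within 0.05. These estimates are a guide to depth and entered no test.

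Tests used limma 3.58.1 in R 4.3.3 on log2(TPM + 1) for genes reaching 1 TPM in 3 or more libraries, with all 5 groups in 1 fit, an eBayes trend and Benjamini-Hochberg adjustment over 11246 genes within each comparison. A fold change on this scale understates the change of low genes. Isoenzyme shares of a step were compared by exact permutation within strata (400 arrangements, 12 spleen libraries), adjusted over 18 shares. The procedures were tested on simulated data. Python 3.11.15, pandas 2.3.3, numpy 2.4.6 and matplotlib 3.10.9 were used, with GENCODE M21 for transcript models and RefSeq for promoters.

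Values in every library are given for members called in any comparison and for the most abundant isoenzyme of each step, and ranges for the rest. From the other lists up to 4 called genes a list and comparison are named by size of change. Pgam2, Eno1b and single libraries were singled out after their values were seen. The members and lists were chosen with earlier results of these data known. The alternatives tried were other pseudocounts, filters, scalings, transcript sets, weights, variance trends, a replicate block and leaving out each library.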

Additional observations from a re-analysis of the deposited data

How the results depend on the processing

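Counts of members called kept within 1.5 times of those reported under other pseudocounts (0.1 and 5), a filter of 5 TPM and the addition of Eno1b to Eno1, in each comparison. The 2 calls for 2NBDG became 16 on TPM as deposited, 1 with median-of-ratios scaling, 1 on protein-coding transcripts, 0 without an eBayes trend, 5 with array weights and 4 for TPM times effective length. The calls over all genes for 2NBDG moved as well. They were 726 on the main scale, 3906 on deposited TPM, 718 with median-of-ratios scaling and 1202 for TPM times effective length. The 6 calls for B220 became 16 on deposited TPM, 3 with median-of-ratios scaling, 3 on protein-coding transcripts and 10 with array weights. Over all genes the 973 calls for B220 became 3461 on deposited TPM and 985 with median-of-ratios scaling. The 2 calls for bone marrow became 1 with no filter, 0 on deposited TPM, 4 with median-of-ratios scaling, 1 on protein-coding transcripts, 9 with array weights, 1 on complete transcripts and 4 for TPM times effective length. Over all genes the 216 calls for bone marrow became 30 on deposited TPM and 229 with median-of-ratios scaling. They became 291 on complete transcripts and 338 for TPM times effective length. The 9 calls of the F test became 17 on deposited TPM and 23 with array weights, a fit whose weights gave a convergence warning. For the interaction and for the shares tested for 2NBDG the count was 0 under every setting run, and the 2 share calls for B220 became 0 on protein-coding transcripts. Leaving out 1 library gave 0 to 4 calls for 2NBDG, 3 to 8 for B220, 0 to 3 for bone marrow, 6 to 13 by the F test and 0 to 2 shares for B220. The log2 fold change of Pfkl for 2NBDG was -0.16 on deposited TPM against 0.43, the only named change of sign. The cause of these changes was not tested. Calls over all genes are not given here for the remaining settings, the replicate block below, the left-out fits or the F test under other settings. Those member counts therefore cannot be set against a share of all genes and show nothing particular to the members. Complete transcripts and TPM times effective length were chosen after seeing the data.

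Libraries with the same replicate number share only that number in the labels. Their deviations from the group means correlated at 0.089 to 0.415 over 18 spleen pairs, 16 of them over 0.1, and at -0.191 to 0.059 over 12 pairs with BMPC, and each of 12 spleen libraries correlated best with its own number, a hint from the data and not from the design. With a replicate block limma called 3 members for 2NBDG, 7 for B220, 0 for the interaction, 2 for bone marrow and 10 by the F test, adding Eno1 for 2NBDG (adjusted p = 0.0333), Tpi1 for B220 (0.0459) and Hk2 (0.0324) and Hk3 (0.0057) by the F test, which then missed Gpi1 (0.0532). Under the block the share calls for B220 became 0 by exact sign flips, with an adjusted p of 0.0804 for Pkm M1 and Pfkm, but the smallest p of its 64 arrangements is 0.03125, or 0.5625 after adjustment for 1 share alone at that floor, so this test says nothing on the stability of the shares. Depth limits Ldhb, Eno2, Pgls and Pfkfb1, each with at most 52 estimated reads in any library. It also limits Hk3 in replicate 1 of the spleen groups, with 9 to 44 estimated reads.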
